A study of Homo sapiens with 38 samples.

Results

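The 39 genes described here encode the machinery that copies DNA in S phase and the enzymes that feed it. They were chosen by name: the subunits of the MCM helicase, its loading and activation factors, the replicative polymerases and primase, the sliding clamp and its loaders, the flap nuclease and ligase, the enzymes of deoxynucleotide supply, the chromatin assembly factors and both E-type cyclins. All 39 were listed in both experiments, among 15378 genes in one and 14820 in the other, and all 39 passed the filter on low values.

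The cells were SH-SY5Y, a human neuroblastoma line of noradrenergic character that grows neurites in retinoic acid, labelled as coming from bone marrow. One experiment held 10 groups of 3 libraries: WT, p53-KO, p53_USP7_DKO and p53_BCOR_DKO cells, each undifferentiated or after neural differentiation, and WT neural cells that also had the vehicle DMSO or FT671, an inhibitor of the deubiquitinase USP7. The other held WT and USP7_heterozygous cells in both states, with 2 libraries in each of its 4 groups. Undifferentiated cells grew in DMEM/F-12 with fetal calf serum, and neural cells spent 10 days in Neurobasal Plus with B27 and 10 µM retinoic acid, so the states differ in medium as well as in retinoic acid. Both double knockouts lack p53 too and are compared with p53-KO cells, while FT671 was given to cells with intact p53. The labels give no dose or duration of FT671, and do not say whether a knockout was 1 clone or whether libraries of a group came from separate cultures, so p-values measure the spread between these libraries, which may be technical. BCOR is a subunit of a noncanonical Polycomb complex, ncPRC1.1, to which USP7 also belongs.

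Before S phase, the origin recognition complex with CDC6 and CDT1 loads rings of MCM2 to MCM7 onto origins, and CDC45 and the GINS proteins turn a loaded ring into a running helicase. Most of these genes are transcribed as cells pass from G1 into S phase, when cyclin E and its kinase release E2F factors from the retinoblastoma protein and its relatives. Cells that leave the cell cycle to differentiate shut this programme down. In RNA from a whole culture, fewer cells in S phase and less RNA per cell cannot be told apart.

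Promoter sequence was searched for E2F motifs. Motifs were not used to choose the genes. Most genes of this programme are known for E2F control, as given above, so an excess of matches was likely beforehand. RefSeq sequence of the 250 bases before the start (GRCh38.p14) was matched by symbol for 34 of the 39 genes. MCM4, MCM5, GINS4, CCNE2 and DSCC1 were not matched. An E2F motif (TTTCCCGC, TTTGGCGC, TTTCGCGC or TTTGCCGC, either strand) lay in 11 of the 34 windows (32.4%) and in 761 of 27305 windows of all genes (2.8%). A CCAAT box (CCAAT, either strand) lay in 18 of the 34 (52.9%) against 33.0% of all, and the CHR element of late cell cycle genes (TTTGAA, either strand) in 1 of 34, that of RRM1 (2.9%), against 13.6%. These are matches of letters, not measured binding. The windows of all genes were not matched to the 34, which held 50.8% to 81.2% GC, for GC content or expression. Most of the 34 windows overlap an annotated exon of some gene. The windows of RRM1, GINS1, POLD1 and RFC5 are free of exons and have no E2F match. In the sequences below, capitals mark matches to the E2F motif or the CCAAT box. Windows free of any annotated exon are given for 3 further genes, 5′ to 3′ along each. That of the helicase gene MCM6 (chr2:135876444-135876693, minus strand) holds the run TTTGGCGCGAAA in 2 places, each of which matches the E2F motif once on each strand, and 2 CCAAT boxes. POLA1 (chrX:24693668-24693917, plus strand), for the catalytic subunit of the polymerase that starts each DNA strand, has 1 match of each. CHAF1A (chr19:4402390-4402639, plus strand), for the large subunit of the chromatin assembly factor, has 4 CCAAT boxes and no E2F match.
MCM6: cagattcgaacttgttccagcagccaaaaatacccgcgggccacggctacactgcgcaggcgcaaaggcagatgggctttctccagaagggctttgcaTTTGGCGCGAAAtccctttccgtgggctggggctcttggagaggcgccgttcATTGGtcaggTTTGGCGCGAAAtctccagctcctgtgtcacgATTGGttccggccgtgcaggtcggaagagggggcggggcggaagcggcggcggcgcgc
POLA1: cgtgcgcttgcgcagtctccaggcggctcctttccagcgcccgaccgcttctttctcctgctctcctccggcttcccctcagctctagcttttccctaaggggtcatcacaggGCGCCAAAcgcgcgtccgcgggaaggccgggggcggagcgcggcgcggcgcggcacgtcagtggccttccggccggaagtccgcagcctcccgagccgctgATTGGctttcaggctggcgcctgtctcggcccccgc
CHAF1A: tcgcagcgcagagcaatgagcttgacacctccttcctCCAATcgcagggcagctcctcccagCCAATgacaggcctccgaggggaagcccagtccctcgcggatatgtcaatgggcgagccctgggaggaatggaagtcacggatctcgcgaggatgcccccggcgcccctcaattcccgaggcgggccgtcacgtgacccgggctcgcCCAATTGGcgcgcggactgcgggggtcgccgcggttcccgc

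The 11 genes with an E2F match and the 23 without one overlapped in range in every comparison. In WT differentiation the median log2 fold change was -0.76 with a match and -0.88 without. The medians lay further apart for USP7 loss in neural cells, at -0.83 with a match and -0.60 without. For the difference in the effect of USP7 loss between the states they were -0.22 and 0.14. Differences between these medians were not tested. After BCOR loss in undifferentiated cells the median log2 fold change was -1.63 with a match (range -2.33 to -1.04) and -1.44 without (range -2.43 to -0.51).

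Libraries held 16149022 to 17946790 reads in genes. USP7 averaged 3024 ± 47.3 normalized counts (SD, n = 3) in undifferentiated p53-KO cells and 495 ± 104 in p53_USP7_DKO cells, and BCOR 3605 ± 321 against 1029.9 ± 31.6 in p53_BCOR_DKO cells, so each transcript was lower where its gene was targeted. In the heterozygote experiment USP7 averaged 3172 ± 22.5 in undifferentiated WT and 1866 ± 17.3 in USP7_heterozygous cells (SD, n = 2). Summed markers of noradrenergic neuroblasts ranged from 0.159% of reads in neural p53_USP7_DKO cells to 0.711% in neural p53-KO cells. TH, the rate-limiting enzyme of noradrenaline synthesis, was at or near 0 in most groups. Of 5 immune markers only CD14 was listed. The 8 fibroblast markers, which neuroblastoma cells of mesenchymal character also express, ranged from 0.0586% to 0.726% of reads and were highest in neural p53_BCOR_DKO cells. Their share exceeded the noradrenergic one in p53_BCOR_DKO cells of both states, in neural p53_USP7_DKO cells and with FT671. There were 2 libraries that stood apart. The third undifferentiated p53-KO library held skeletal muscle transcripts (9 listed markers at 0.124% of reads, against a lowest of 0.000368% in its group). The third undifferentiated p53_USP7_DKO library deviated on the 39 genes themselves: 23 of them were above and 16 below both other libraries of the group, and the deviation correlated across the 39 genes with transcript length (r = -0.66) and with the GC content of the transcript (r = -0.66). In the third undifferentiated p53-KO library 27 of the 39 were below both others and 9 above, by less on the whole, with r = -0.51 for length and -0.58 for GC content. These correlations are descriptions in which all points share 1 library. Counts of the 39 genes that rest on these libraries are given with and without both.

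Reads were assigned to genes by exon, and the sources used here do not say whether strand was used. Exons of 10 of the 39 genes overlap those of another coding gene in GENCODE v29, 8 of them one on the other strand. Examples are MCM7 with AP4M1, TYMS with ENOSF1 and CCNE2 with INTS8. Reads in the shared stretches could have been counted for the wrong gene or for neither.

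Across the 10 groups of the first experiment the 39 genes took the largest share of reads in undifferentiated WT cells, 0.722% ± 0.007 (SD, n = 3), and the smallest in WT neural cells with FT671, 0.139% ± 0.0023. Undifferentiated p53-KO cells were close to WT at 0.681% ± 0.0264. A drop followed to undifferentiated p53_USP7_DKO cells (0.414% ± 0.0045), WT neural cells (0.408% ± 0.0021) and DMSO-treated WT neural cells (0.406% ± 0.002), where untreated neural libraries (0.406% to 0.410%) overlapped those with DMSO (0.404% to 0.408%) and met the lowest p53_USP7_DKO library at 0.410%. Neural p53_BCOR_DKO cells (0.287% ± 0.004) and neural p53-KO cells (0.285% ± 0.0031) also overlapped. Undifferentiated p53_BCOR_DKO cells came next at 0.225% ± 0.0112, then neural p53_USP7_DKO cells at 0.185% ± 0.001. In p53_BCOR_DKO cells the share was higher in the neural state than before it, and in the other genotypes of both experiments it was lower.

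**Figure D1:**
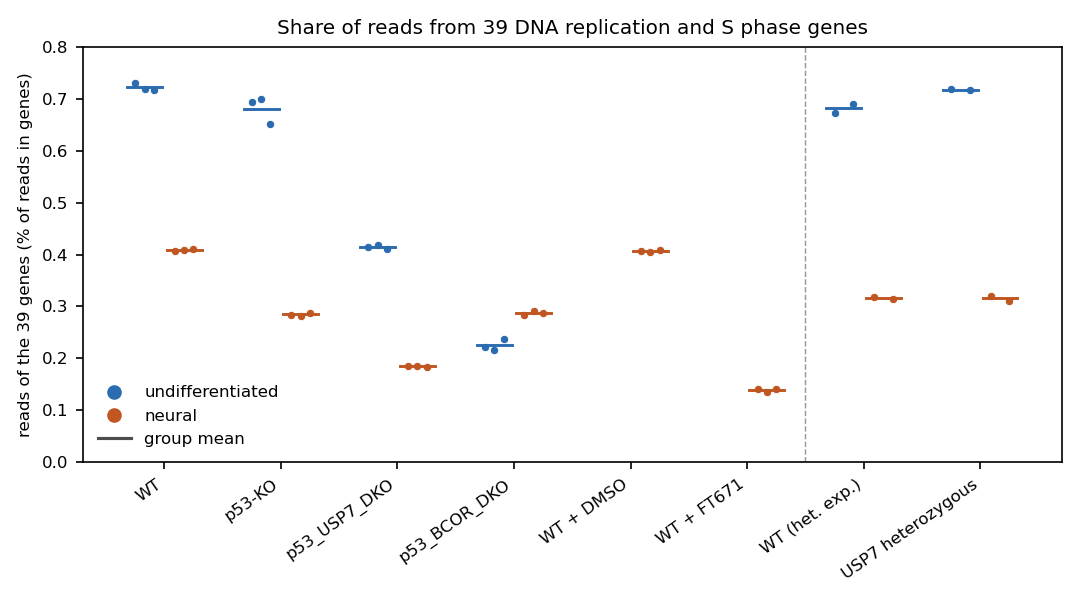
Share of all reads in genes that came from the 39 genes (vertical axis, percent) in each library, by genotype or treatment (horizontal axis), with undifferentiated cells in blue, neural cells in orange and group means as bars. The dashed line separates the 2 experiments. Undifferentiated p53_BCOR_DKO libraries (0.217% to 0.238%) lie below the neural ones (0.283% to 0.291%), the reverse of every other genotype.

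Most members followed one profile. Over the means of the 10 groups, the correlation of a gene with the median of the other 38 was 0.88 or higher for 36 of the 39 genes, a description in which all genes share the libraries. The exceptions were GINS4 (r = 0.06), a GINS subunit, CCNE1 (r = 0.59), which encodes cyclin E1, and UNG (r = 0.74), a uracil-DNA glycosylase that removes uracil from new DNA. The mean level was lowest in FT671-treated neural cells for 34 of the 39 genes, and highest in undifferentiated WT cells for 22 and in undifferentiated p53-KO cells for 15. CCNE1 and GINS4 were highest in neural p53_BCOR_DKO cells. These counts and the correlations were not computed for all genes, so no share over all genes stands beside them. In undifferentiated WT cells, per kilobase of the longest coding transcript, MCM7 had the highest level (6546 normalized counts per kilobase), followed by PCNA (3748) and MCM3 (3270), and CCNE2 the lowest (102).

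**Figure D2:**
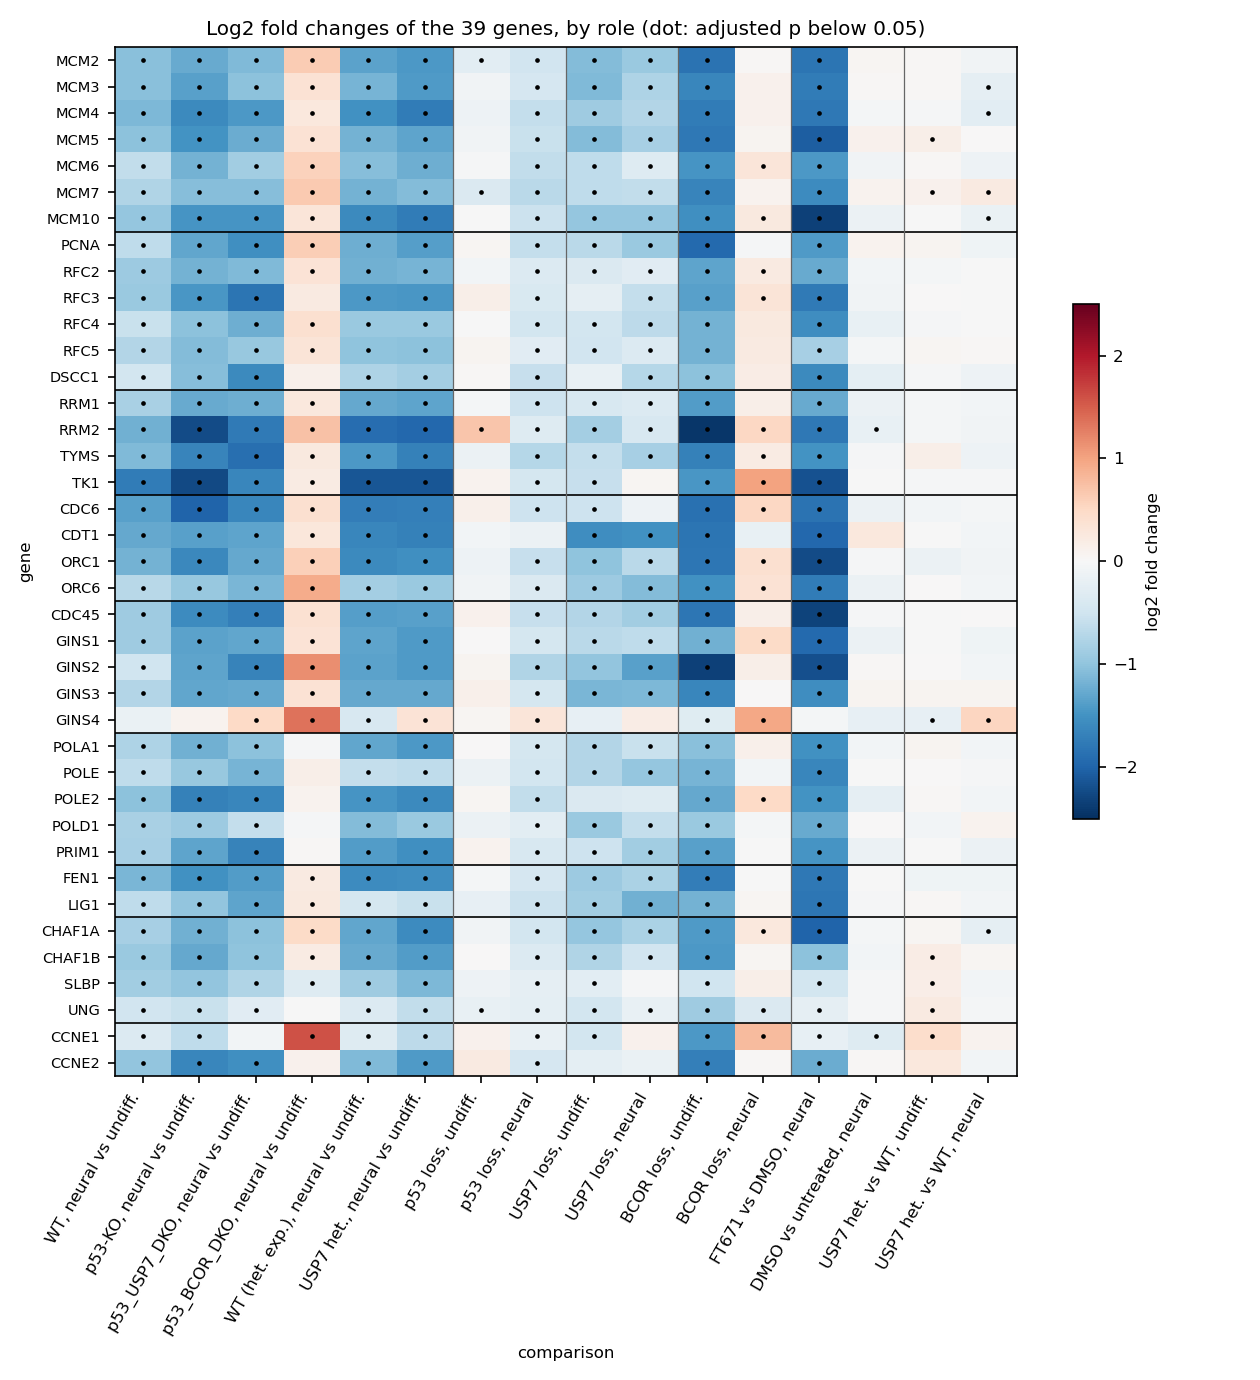
Log2 fold change of each of the 39 genes (rows, grouped by role) in 16 comparisons (columns), from -2.5 in blue to 2.5 in red, with a dot where the adjusted p was below 0.05. GINS4, CCNE1, SLBP and UNG depart from the other rows, and the columns of BCOR loss differ in colour between the states.

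Differentiation of WT cells lowered the replication genes. Of the 39 genes 38 fell and 0 rose, where 33.4% of the 15351 genes tested fell and 32.4% rose, 65.7% in all. The median log2 fold change was -0.88, which is 1.84-fold lower, against -0.01 over all genes tested. A gene is called here at a Benjamini-Hochberg adjusted p below 0.05 in limma, fitted to log2(normalized count + 1) over all groups of an experiment, and errors of log2 fold changes are standard errors.

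The largest falls were in nucleotide supply and origin licensing. TK1, the thymidine kinase that salvages thymidine, read 3766, 3772 and 3754 normalized counts in the 3 undifferentiated WT libraries and 1153, 1129 and 1081 in the neural ones. That is a log2 fold change of -1.75 ± 0.09 (3.36-fold lower, adjusted p = 2.8e-16), with no overlap between the states. CDC6, the ATPase that helps load the MCM ring, stood at 2682, 2723 and 2622 before and 1042, 1033 and 1053 after (log2 -1.36 ± 0.07). CDT1, its partner in loading, went from 1478, 1459 and 1398 to 613, 591 and 585 (log2 -1.28 ± 0.10), again with no overlap. RRM2, the small subunit of ribonucleotide reductase that limits its activity, fell by 1.20 ± 0.06 on the log2 scale and TYMS, the thymidylate synthase, by 1.10 ± 0.07. All 7 MCM genes, MCM10 included, fell, with a median of -1.02. MCM2 stood at 7246, 7147 and 7177 undifferentiated and 3522, 3598 and 3344 neural (log2 -1.04 ± 0.09), and MCM7 fell from between 19406 and 20749 to between 11558 and 12194 (log2 -0.76 ± 0.06).

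The smallest called change was that of CCNE1, which fell 1.26-fold (log2 -0.34 ± 0.07, adjusted p = 0.00015), while CCNE2, for cyclin E2, fell 1.99-fold. DSCC1, part of the clamp loader that acts in sister chromatid cohesion, fell by 0.47 ± 0.13 and UNG by 0.48 ± 0.06 on the log2 scale. PCNA, the sliding clamp, fell from between 5015 and 5145 to between 3192 and 3353 (log2 -0.64 ± 0.15). GINS4 was the 1 gene not called: 755, 666 and 758 before against 648, 667 and 635 after (log2 -0.16 ± 0.10, adjusted p = 0.149), with groups that overlap.

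The WT cells of the heterozygote experiment gave the same direction: 39 of 39 fell (39.6% of 14820 genes fell), with a median log2 of -1.28 against -0.88 in the first experiment, a difference that was not tested because the tables were normalized separately. TK1 fell from 3111 and 2996 to 770 and 618 normalized counts (log2 -2.14 ± 0.08, n = 2) and RRM2 from 5638 and 6229 to 1558 and 1607 (log2 -1.91 ± 0.05). At the other end stood CCNE1 (log2 -0.31 ± 0.08) and UNG (log2 -0.34 ± 0.05).

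**Figure D3:**
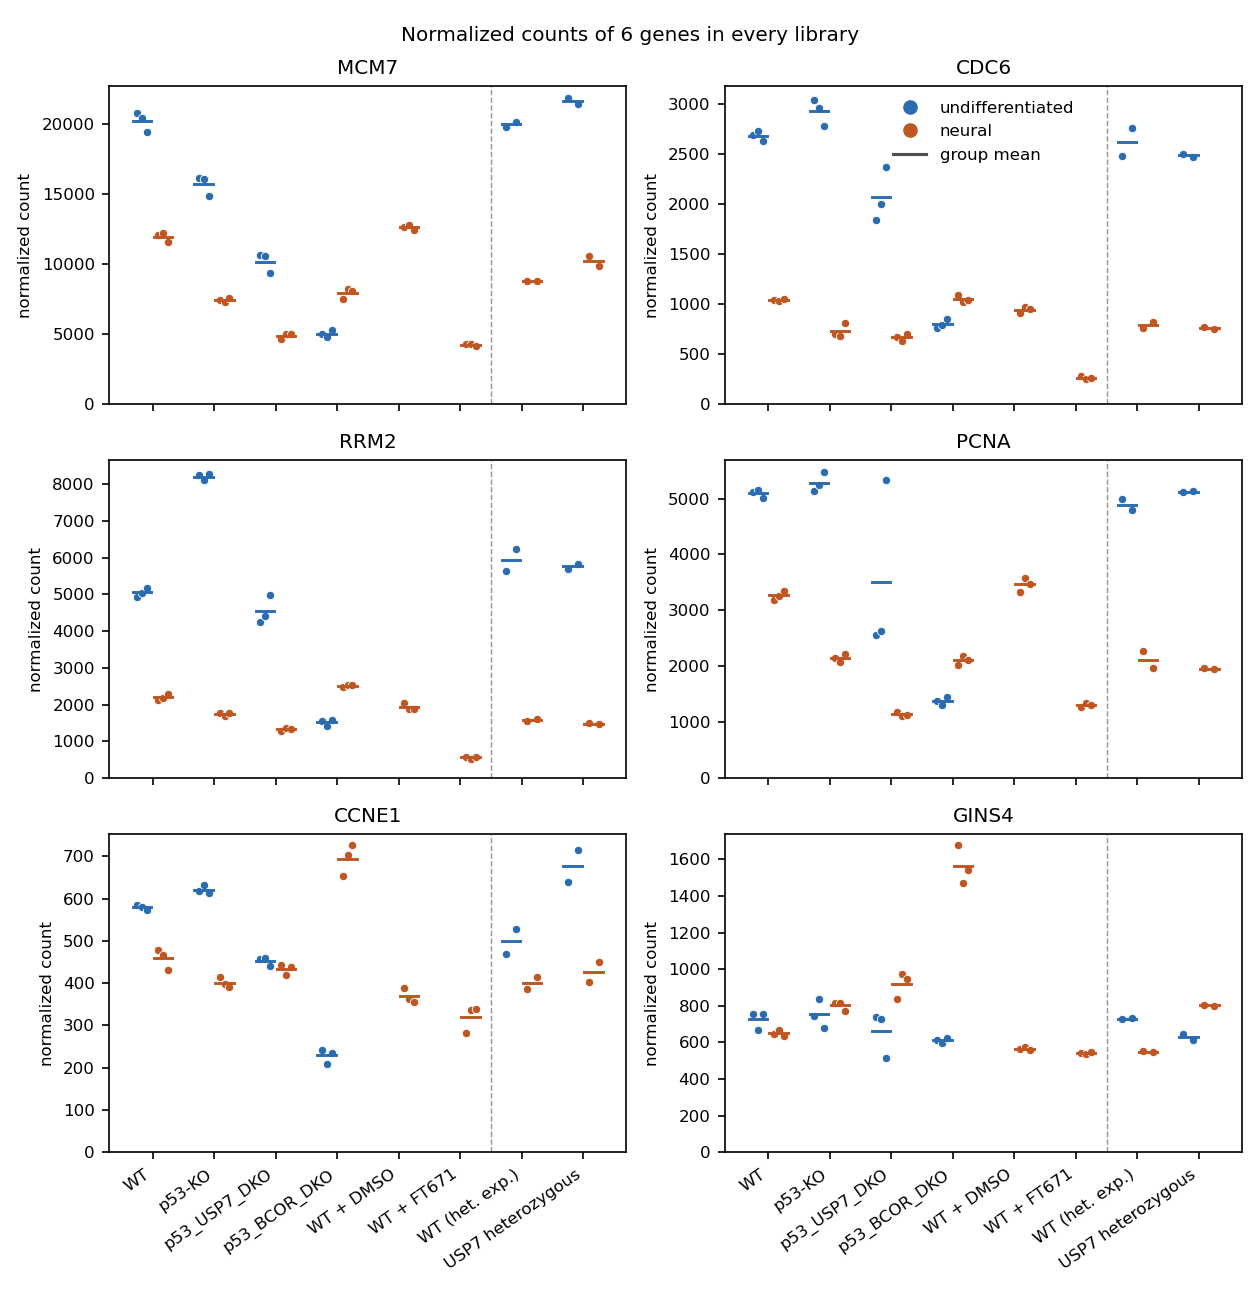
Normalized counts (vertical axes, from 0) of MCM7, CDC6, RRM2, PCNA, CCNE1 and GINS4 in every library, by genotype or treatment (horizontal axes), with undifferentiated cells in blue, neural cells in orange and group means as bars. The dashed line separates the 2 experiments. CCNE1 and GINS4 rise to their highest levels in neural p53_BCOR_DKO cells, and 1 undifferentiated p53_USP7_DKO library has 5329 counts of PCNA where the other two have 2557 and 2627.

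Without p53 the fall was deeper. In p53-KO cells 38 of 39 genes fell with differentiation (33.5% of all genes tested fell and 69.0% changed either way), with a median log2 of -1.29, and GINS4 was again not called (log2 0.10 ± 0.10, adjusted p = 0.379). RRM2 went from 8233, 8100 and 8264 normalized counts to 1781, 1698 and 1769, a 4.68-fold fall. TK1 fell 4.79-fold and CDC6 4.01-fold. Without the 2 libraries that stood apart 38 genes fell again, with a median of -1.30. The interaction, which tests whether the change with differentiation differed between p53-KO and WT cells, called 23 of the 39 genes, all more negative in p53-KO cells (7.87% of all genes tested were called in that direction and 10.2% in the other). RRM2 differed most (log2 -1.03 ± 0.08, adjusted p = 2.9e-10), followed by GINS2 (-0.81 ± 0.18), CDC45 (-0.70 ± 0.10) and PCNA (-0.65 ± 0.21). All 4 deoxynucleotide supply genes and 6 of 7 MCM genes were among them, MCM2 being the exception (-0.22 ± 0.12). Without the 2 libraries that stood apart 34 were called.

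Split by state, p53 loss touched few replication genes before differentiation and nearly all of them after it. In undifferentiated cells 1 gene rose and 3 fell (12.2% and 10.1% of all genes tested), with a median of -0.01. RRM2 rose from 4926, 5046 and 5175 to 8233, 8100 and 8264 (log2 0.70 ± 0.06, 1.62-fold, adjusted p = 1.6e-10), with no overlap. MCM7 fell (-0.37 ± 0.06), as did MCM2 (-0.26 ± 0.09) and UNG (-0.18 ± 0.06). The count was 2 when any WT library or the third p53-KO library was left out and 3 without the 2 libraries that stood apart. In neural cells 37 of 39 fell and 1 rose (12.0% and 17.8% of all genes tested, 29.8% together), with a median of -0.45. With any 1 library of this comparison left out, 29 to 33 genes were called. GINS2 fell most (-0.75 ± 0.13), from 897, 893 and 944 normalized counts to 566, 512 and 551. TYMS fell from 1507, 1600 and 1606 to 973, 954 and 953 (-0.71 ± 0.07), and RRM2, which had been higher without p53 before differentiation, was lower after it (-0.33 ± 0.06). GINS4 rose (0.30 ± 0.10, adjusted p = 0.0168) and CDT1 was not called (-0.14 ± 0.10).

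Loss of USP7 in undifferentiated p53-KO cells lowered 34 of the 39 genes and raised 0, where 28.4% of all genes tested fell and 28.9% rose, 57.3% in all. The median log2 was -0.68. CDT1 fell most, from 1317, 1488 and 1321 normalized counts to 549, 464 and 408, which is 2.92-fold (log2 -1.54 ± 0.10, adjusted p = 2.7e-13). GINS3, another GINS subunit, fell 2.21-fold and MCM3 2.16-fold. All 7 MCM genes and all 4 of origin recognition and licensing fell, with medians of -0.97 and -0.95. MCM2 went from 6332, 6358 and 5435 to 3319, 3060 and 2282 (-1.08 ± 0.09), and RRM2 from 8233, 8100 and 8264 to 4254, 4402 and 4985 (-0.85 ± 0.06). No overlap occurred in either.

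The third p53_USP7_DKO library bears on this comparison. PCNA read 2557 and 2627 in the first and second libraries and 5329 in the third, inside the p53-KO range of 5137 to 5470, and its log2 fold change was -0.68 with all libraries and -1.002 without both that stood apart. POLE2, a subunit of the leading strand polymerase, read 189, 262 and 544 against 380, 355 and 432 in p53-KO cells. POLE2, RFC3, DSCC1 and CCNE2 were not called with all libraries, and all 4 were called as lower without the 2 libraries, with log2 fold changes of -0.72, -0.52, -0.42 and -0.43. Then 38 of 39 fell, with a median of -0.78. GINS4 was not called either way (-0.20 with and -0.10 without). Deviations of that library went with transcript length and GC content, as given above, and the part of this in the result was not tested. Of the markers, 7 of 9 neuronal and 8 of 10 noradrenergic genes were lower after USP7 loss and 0 higher, while 4 of 8 fibroblast genes were higher and 2 lower. Their part in the result was not tested.

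In neural cells USP7 loss lowered 32 of 39 genes and raised 0 (33.0% and 30.7% of all genes tested, 63.7% together), with a median of -0.66. CDT1 again fell most, from 565, 526 and 527 to 156, 188 and 224 (-1.52 ± 0.10). GINS2 fell from 566, 512 and 551 to 204, 211 and 221 (-1.35 ± 0.13) and LIG1, the ligase that seals Okazaki fragments, 2.29-fold. The 7 genes not called were TK1, CDC6, POLE2, SLBP, CCNE1, CCNE2 and GINS4. CDC6 read 697, 683 and 807 in p53-KO and 669, 625 and 702 in p53_USP7_DKO cells (-0.13 ± 0.07, adjusted p = 0.136), groups that overlap. SLBP, which binds the stem-loop of histone mRNA, stood at -0.03 ± 0.09. Markers of cell type differed as well. All 9 neuronal genes were lower (median -2.39), at 0.0531% to 0.0551% of reads against 0.238% to 0.242% in p53-KO cells. Of the 10 noradrenergic genes 7 were lower and 2 higher, at 0.159% to 0.175% against 0.680% to 0.711%, and 7 of 8 fibroblast genes were higher (median 2.01), at 0.187% to 0.189% against 0.0637% to 0.0669%. The part of these in the result was not tested.

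The effect of USP7 loss differed between the states for 11 of the 39 genes, 10 less negative in neural cells and 1, DSCC1, more negative (-0.53 ± 0.18). Among all genes tested 20.9% and 21.2% were called in these directions, 42.1% together. TK1 differed most (0.63 ± 0.12), then CCNE1 (0.56 ± 0.10), RRM2 (0.46 ± 0.08) and GINS4 (0.40 ± 0.13). When the fit held no other groups the count was 4, and it was 18 without the first undifferentiated p53_USP7_DKO library and 19 without the 2 libraries that stood apart.

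Within p53_USP7_DKO cells differentiation still lowered 37 genes and raised 1, GINS4 (31.6% and 33.9% of all genes tested, 65.5% together), with a median of -1.28. TYMS fell from 1939, 1768 and 2325 to 508, 543 and 568 (-1.89 ± 0.07). GINS4 rose from 741, 727 and 515 to 839, 973 and 945 (0.49 ± 0.10), and by 0.32 without the 2 libraries that stood apart, where the counts were again 37 and 1. CCNE1 was not called (-0.06 ± 0.07).

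Loss of BCOR in undifferentiated p53-KO cells lowered all 39 genes, where 33.7% of all genes tested fell and 35.6% rose, 69.4% in all. The median log2 was -1.45, a 2.73-fold fall. RRM2 fell from 8233, 8100 and 8264 normalized counts to 1552, 1421 and 1589, which is 5.39-fold (log2 -2.43 ± 0.06, adjusted p = 1.6e-23). GINS2 fell 5.02-fold, from 1330, 1298 and 1414 to 243, 249 and 315. PCNA went from 5137, 5248 and 5470 to 1371, 1301 and 1456 (-1.94 ± 0.15), CDC6 from 3036, 2958 and 2776 to 758, 791 and 848 (-1.87 ± 0.07), and MCM7 from 16143, 16042 and 14833 to 4972, 4754 and 5286 (-1.65 ± 0.06). In none of these did the groups overlap. The smallest falls were those of GINS4 (-0.29 ± 0.10, adjusted p = 0.00777), SLBP (-0.51 ± 0.09) and UNG (-0.90 ± 0.06). All 39 fell without the 2 libraries that stood apart too, with a median of -1.50.

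After differentiation the picture was another. In neural cells BCOR loss raised 15 of the 39 genes and lowered 1 (29.4% and 32.9% of all genes tested, 62.3% together), 23 were not called, and the median was 0.15. TK1 rose from 846, 797 and 850 to 1585, 1769 and 1680 (1.01 ± 0.09, 2.02-fold). GINS4 rose from 817, 814 and 773 to 1680, 1472 and 1544 (0.96 ± 0.10) and CCNE1 from 415, 399 and 390 to 654, 703 and 727 (0.79 ± 0.07), with no overlap. CDC6 and RRM2 rose 1.44-fold each. UNG fell (-0.35 ± 0.06). MCM2 read 2644, 2408 and 2498 in p53-KO and 2471, 2643 and 2644 in p53_BCOR_DKO cells (0.04 ± 0.09, adjusted p = 0.712), groups that overlap, and PCNA differed by -0.03 ± 0.15. The count of called genes was 25, 24 of them higher, without the 2 undifferentiated libraries that stood apart. Those libraries enter this comparison only through the shared estimate of spread. With any 1 library of the comparison left out, 11 to 15 genes were called.

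The interaction tested that turn, and all 39 genes passed it in the same direction (29.3% of all genes tested were called in that direction). The median difference was 1.73 on the log2 scale. RRM2 had the largest (2.95 ± 0.08, adjusted p = 3.1e-21), followed by GINS2 (2.48 ± 0.18), TK1 (2.46 ± 0.12) and CDC6 (2.40 ± 0.11), and UNG (0.55 ± 0.08) and SLBP (0.66 ± 0.12) the smallest. All 39 were called under each alternative tried, and with each library left out in turn.

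Within p53_BCOR_DKO cells, differentiation raised 29 of the 39 genes and lowered 1, SLBP (27.0% and 30.1% of all genes tested, 57.1% together), with a median of 0.32. CCNE1 rose most, from 242, 209 and 235 to 654, 703 and 727 (1.60 ± 0.07, 3.03-fold, adjusted p = 2.9e-17). GINS4 rose from 614, 594 and 626 to 1680, 1472 and 1544 (1.35 ± 0.10) and GINS2 from 243, 249 and 315 to 550, 644 and 613 (1.17 ± 0.13). All 7 MCM genes, all 5 of CDC45 and GINS, all 4 of origin recognition and licensing and all 4 of deoxynucleotide supply rose. None of the 5 polymerase and primase genes was called (median 0.02): POLA1 stood at -0.03, POLD1 at -0.04, PRIM1 at 0.02, POLE2 at 0.10 and POLE at 0.15. SLBP fell from 1378, 1432 and 1435 to 1159, 1148 and 1086 (-0.32 ± 0.09). Even after the rise most levels stayed below those of undifferentiated WT cells, with a median over the 39 genes of 44.9% of that level against 35.6% before differentiation. Marker lists differed with BCOR loss too. Of the 8 fibroblast genes 6 were higher in each state, and 1 (undifferentiated) or 2 (neural) lower, at 0.350% to 0.370% of reads undifferentiated and 0.719% to 0.726% neural against at most 0.0669% in p53-KO cells. In neural cells 8 of 9 neuronal genes were lower and 0 higher (median -3.22, 0.0765% to 0.0796% of reads against 0.238% to 0.242%), as were 9 of 10 noradrenergic genes with 1 higher (median -1.41, 0.193% to 0.216% against 0.680% to 0.711%). In undifferentiated cells 5 neuronal genes were lower and 3 higher, and 6 noradrenergic genes lower and 3 higher. The part of these lists in the values of the replication genes was not tested.

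**Figure D4:**
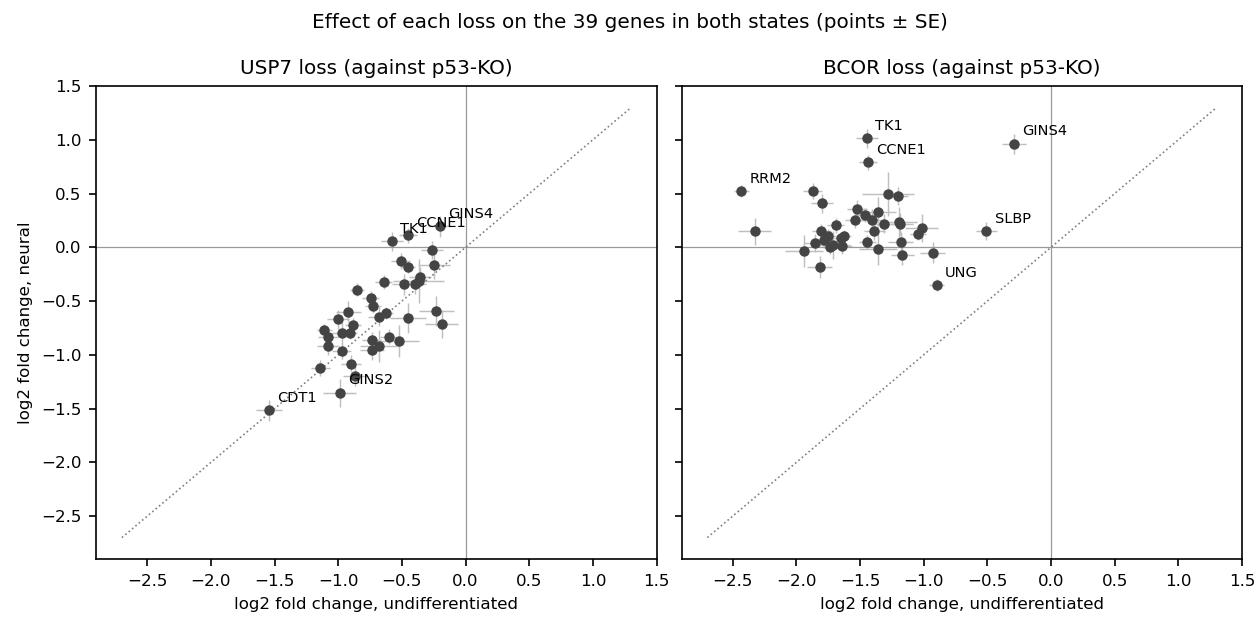
Log2 fold change of each of the 39 genes in undifferentiated (horizontal axis) against neural cells (vertical axis) for USP7 loss (left) and BCOR loss (right), both against p53-KO cells, with bars for standard errors and a dotted line of equality. The points for USP7 loss scatter around the line, while those for BCOR loss lie between -2.43 and -0.29 on the horizontal axis and between -0.35 and 1.01 on the vertical one.

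Set directly against each other, the double knockouts changed order between the states. In undifferentiated cells 37 of 39 genes were higher without USP7 than without BCOR and 0 lower (32.2% and 33.0% of all genes tested, 65.2% together), with a median of 0.79. RRM2 was 2.98-fold higher (1.58 ± 0.06), CCNE2 2.75-fold and CDC6 2.57-fold. GINS4 (0.09 ± 0.10) and POLD1 (0.01 ± 0.10), the catalytic subunit of the lagging strand polymerase, were not called. Without the 2 libraries that stood apart 38 were higher, with a median of 0.71, and CCNE2 differed by 1.253 on the log2 scale against 1.46 with all libraries. In neural cells 36 of 39 were lower without USP7 than without BCOR and 1 higher (28.6% and 32.3% of all genes tested, 60.9% together), with a median of -0.89. GINS2 stood at 204, 211 and 221 without USP7 and 550, 644 and 613 without BCOR (-1.50 ± 0.13), ORC6, a subunit of the origin recognition complex, at 272, 287 and 274 against 732, 753 and 780 (-1.44 ± 0.08), and CDT1 at 156, 188 and 224 against 446, 492 and 488 (-1.33 ± 0.10). UNG was slightly higher (0.17 ± 0.06).

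The USP7 inhibitor gave the lowest mean level among the 10 groups of its experiment for 34 of the 39 genes. PCNA, GINS3 and TYMS were lowest in neural p53_USP7_DKO cells, UNG in neural and CCNE1 in undifferentiated p53_BCOR_DKO cells. In WT neural cells 38 of 39 genes fell with FT671 against DMSO and 0 rose (32.1% and 33.0% of all genes tested, 65.1% together), with a median log2 of -1.59, a 3.01-fold fall. MCM10, which helps activate the helicase, fell from 1241, 1269 and 1254 normalized counts to 266, 218 and 259, which is 5.08-fold (-2.34 ± 0.07, adjusted p = 2.5e-20). CDC45 went from 855, 772 and 813 to 157, 163 and 168 (-2.31 ± 0.07), and ORC1, the largest origin recognition subunit, from 531, 541 and 532 to 101, 105 and 136 (-2.23 ± 0.09). RRM2 fell 3.44-fold, MCM2 3.56-fold and PCNA 2.65-fold. No overlap occurred in any of them. CCNE1 fell 1.16-fold (-0.21 ± 0.07, adjusted p = 0.01), from 388, 363 and 355 to 281, 336 and 338, UNG by 0.23 ± 0.06 and SLBP by 0.45 ± 0.09 on the log2 scale. GINS4 read 563, 572 and 557 with DMSO and 543, 538 and 545 with FT671 (-0.06 ± 0.10, adjusted p = 0.614). Beside these falls, all 9 neuronal markers fell (median -0.50, 0.114% to 0.120% of reads against 0.228% to 0.233% with DMSO), and 9 of 10 noradrenergic markers fell and 1 rose (0.254% to 0.265% against 0.506% to 0.518%). Of the 8 fibroblast markers 5 rose and 1 fell (0.369% to 0.381% against 0.196% to 0.219%). Their part in the result was not tested.

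Set beside the neural USP7 knockout, which was made without p53, CDT1 differed by -1.97 ± 0.10 with FT671 and by -1.52 ± 0.10 with USP7 loss, TK1 by -2.18 and 0.05, and CDC6 by -1.84 and -0.13. The difference between drug and knockout was not tested, since the backgrounds differ. DMSO by itself moved 2 of the 39 genes, both lower than in untreated cells (4.38% of all genes tested were lower and 4.33% higher, 8.70% together), CCNE1 (-0.31 ± 0.07, adjusted p = 0.00449) and RRM2 (-0.19 ± 0.06, adjusted p = 0.0352), with a median of -0.04. When the fit held no other groups the count was 10, and it was 7 without the 2 libraries that stood apart, and 1 when any untreated library or DMSO library 2 or 3 was left out.

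Heterozygosity came with calls for a minority of genes, both among the replication genes and among all genes tested. Between USP7_heterozygous and WT cells 6 genes were higher and 1 lower before differentiation (11.4% and 14.1% of the 14820 genes tested, 25.4% together). After differentiation 2 were higher and 4 lower (9.56% and 11.7%, 21.3% together). The medians were 0.01 before and -0.06 after. CCNE1 was higher in undifferentiated heterozygotes, at 639 and 715 normalized counts against 469 and 529 (0.44 ± 0.08, adjusted p = 0.00033, n = 2). UNG, CHAF1B, SLBP, MCM5 and MCM7 were higher by between 0.11 and 0.23 on the log2 scale, and GINS4 lower (-0.21 ± 0.06). The count was 2 when either WT library or the second heterozygous library was left out, and 2 in DESeq2. In neural cells GINS4 was higher, at 804 and 801 against 552 and 547 (0.55 ± 0.06, adjusted p = 5e-07), as was MCM7 (0.22 ± 0.04), and MCM4 (-0.26 ± 0.04), CHAF1A (-0.23 ± 0.05), MCM3 (-0.22 ± 0.04) and MCM10 (-0.17 ± 0.05) were lower.

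Heterozygous cells lowered 38 genes with differentiation and raised 1, GINS4 (38.2% of all genes tested in each direction), with a median of -1.41. TK1 fell 4.42-fold and RRM2 3.88-fold. The change with differentiation differed from that in WT cells for 8 genes, 7 more negative and 1 less (7.44% and 8.76% of all genes tested). GINS4 fell in WT (-0.41 ± 0.06) and rose in heterozygous cells (0.35 ± 0.06), a difference of 0.76 ± 0.09 (adjusted p = 1.3e-06). CCNE1 (-0.35 ± 0.12), CHAF1A, UNG and TYMS were the most negative. The count was 3 in DESeq2, and between 4 and 8 with a library left out: 4 without the first undifferentiated WT, second undifferentiated heterozygous or first neural heterozygous library and 5 without the second undifferentiated WT library.

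Other genes of replication and of the cell cycle put these values in place. Of 38 further fork and origin genes, 29 fell and 1 rose in WT differentiation (median log2 -0.59). ASF1B, a histone chaperone, fell by 1.05 ± 0.06 and RPA1, which coats single-stranded DNA, by 0.80 ± 0.05 on the log2 scale, while POLD4, a small polymerase subunit, rose (0.89 ± 0.26). After BCOR loss in undifferentiated cells 32 of them fell and 1 rose (median -0.91), with POLA2 at -1.33 ± 0.07 and DNA2 at -1.58 ± 0.08. With FT671 32 fell and 2 rose (median -1.08). Of 18 further genes of nucleotide supply, 12 fell and 1 rose after BCOR loss in undifferentiated cells (median -0.68). With FT671, 11 fell and 5 rose, among the latter RRM2B (1.57 ± 0.11), a p53 target that encodes an alternative small subunit of ribonucleotide reductase.

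The G2 and mitosis list did not always track the replication genes. After USP7 loss in undifferentiated cells 8 of its 36 genes fell and 11 rose (median 0.03), beside 34 falls and 0 rises of the 39 replication genes. Without the 2 libraries that stood apart this balance turned, to 12 falls and 5 rises (median -0.09). AURKA, a kinase of spindle poles, rose by 0.62 ± 0.09 on the log2 scale and CENPE, a kinetochore motor, by 0.42 ± 0.08, whereas MYBL2, a transcription factor, fell (-0.97 ± 0.08). Without those libraries the log2 values were 0.47 for AURKA, 0.35 for CENPE and -0.92 for MYBL2, all still called. In undifferentiated USP7_heterozygous cells 31 of the 36 were lower and 1 higher (median -0.33), beside 1 lower and 6 higher replication genes. After BCOR loss in undifferentiated cells 35 of the 36 fell and 0 rose, with a median of -0.86 beside -1.45 for the replication genes. In neural cells 25 of the 36 were higher and 0 lower, with a median of 0.52, beside 15 of 39 replication genes higher and a median of 0.15. With FT671 all 36 fell (median -1.98). The difference between the lists was not tested.

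**Figure D5:**
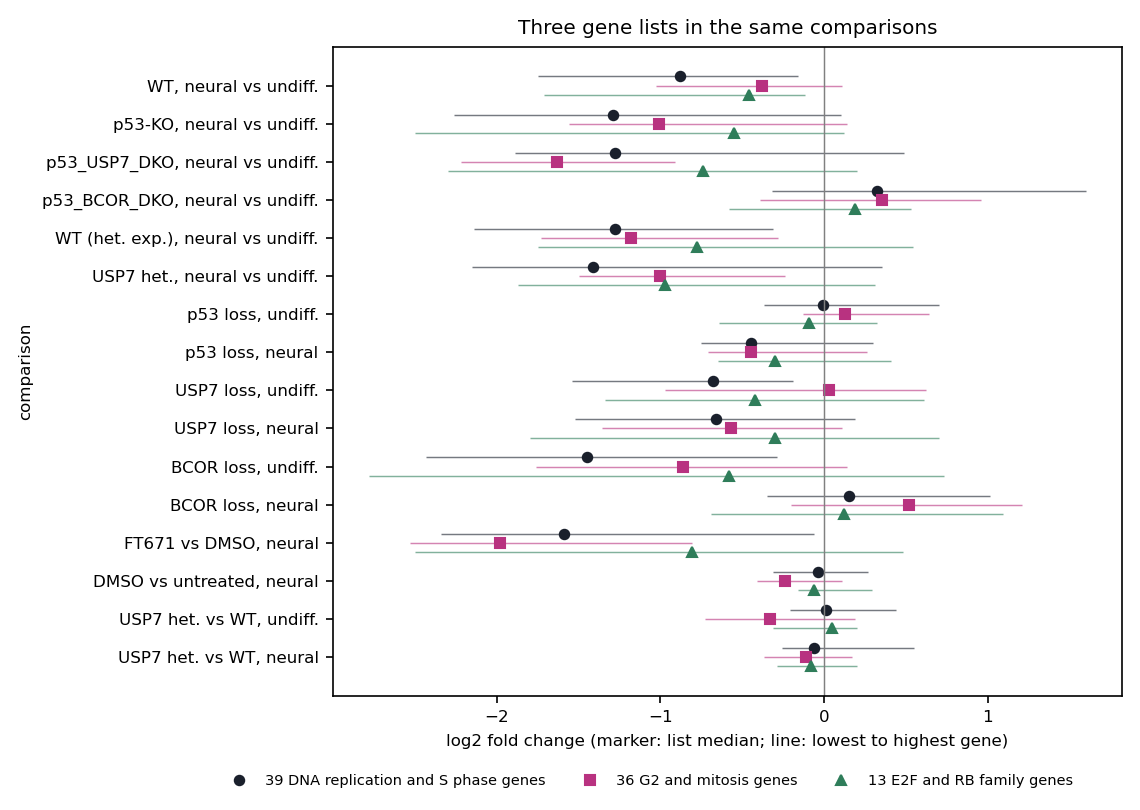
Median log2 fold change (markers) and the range from the lowest to the highest gene (lines) for the 39 replication and S phase genes, 36 G2 and mitosis genes and 13 E2F and RB family genes (horizontal axis) in 16 comparisons (vertical axis). The medians of the first and second list separate after USP7 loss in undifferentiated cells (-0.68 and 0.03, or -0.78 and -0.09 without the 2 libraries that stood apart) and lie close together after p53 loss in neural cells (both -0.45).

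Of the 13 genes of the E2F and RB family, 11 fell and 0 rose in WT differentiation (median log2 -0.46). After USP7 loss 8 fell and 1 rose in undifferentiated cells (median -0.42), and 9 fell and 2 rose in neural cells (median -0.30). After BCOR loss 9 fell and 3 rose in undifferentiated cells (median -0.58), and 4 fell and 6 rose in neural cells (median 0.12). With FT671 11 fell and 2 rose (median -0.81).

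Among single regulators, the activating factor E2F1 averaged 2702 ± 130.5 normalized counts in undifferentiated p53-KO cells, 1269 ± 239 without USP7 and 788 ± 35.2 without BCOR (log2 -1.11 and -1.78). In neural cells it stood at 1358 ± 89.3, 390 ± 23.6 and 953 ± 51.9 in the same order. E2F8, a repressor of the family whose own gene is an E2F target, fell with BCOR loss in undifferentiated cells, from 898 ± 40.7 to 129.8 ± 8.03. With FT671 E2F1 went from 1998 ± 154 to 353 ± 23.4. RBL1, a relative of RB1, averaged 1057 ± 117 in undifferentiated and 422 ± 35 in neural WT cells. CDKN1A, the kinase inhibitor p21, rose with FT671 from 651 ± 9.59 to 12486 ± 234 (log2 4.26). It also rose after USP7 loss, from 327 ± 26 to 2042 ± 246, and after BCOR loss, to 1183 ± 48.7, in undifferentiated cells, both without p53. In neural cells CDKN1A was 210 ± 21 in p53-KO, 427 ± 50.3 in p53_USP7_DKO and 275 ± 16.1 in p53_BCOR_DKO cells, each loss again a called rise (log2 1.02 and 0.39). CDKN1B, the inhibitor p27, was higher after both losses in both states, by 0.38 to 0.66 on the log2 scale.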

How the data were processed

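Poly(A) RNA was sequenced from SH-SY5Y cells, 38 libraries in all. STAR, HTSeq, DESeq2 and hg19 are named, without versions or roles, per the submitters' processing notes. The deposited signal is a normalized count: 1 was subtracted, and each library's values were then whole multiples of 1 step within 0.01 reads for 100.0% of genes, so reads and size factors (0.9217 to 1.0449) could be recovered. A further 6 columns fitted no sample and stayed out. In the heterozygote table the columns' replicate numbers differ from the titles' in all groups but neural WT, so each column has a group and no sample, and first or second refers to the order of columns.

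The deposited values were put on the log2(normalized count + 1) scale and fitted with limma 3.58.1 (trend and robust) in R 4.3.3, with 1 model per experiment over genes averaging 5 or more normalized counts (15351 and 14820). P-values were adjusted over all of these by Benjamini-Hochberg, with a threshold of 0.05. Alternatives were edgeR 4.0.16 and DESeq2 1.42.0 on recovered reads, pseudocounts of 0.5 and 5, no filter, fits without other groups, TMM rescaling, the replicate block and each library left out. A fit without the 2 libraries that stood apart, companion lists included, was added after the data were seen. The fits were tested on simulated data. Same-numbered libraries were compared by their deviations from group means: 4 of 135 pairs correlated over 0.1. For p53-KO and p53_USP7_DKO undifferentiated cells all 3 did, with r of 0.15, 0.11 and 0.23. The third libraries of these groups are the 2 that stood apart. Whether the numbers mark pairs of libraries was not tested.

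The 39 genes and the companion lists were chosen with earlier results of these data known. Genes given in full were 11 examples of the roles and the 3 highest and 3 lowest called in a comparison (4 a direction in an interaction), with others picked after their values were seen. Promoters came from RefSeq (GRCh38.p14), a build other than the authors', and transcript lengths from GENCODE v29. Results of some single genes are not reported here.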

Additional observations from a re-analysis of the deposited data

Results flagged for a closer look

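Effects that differed between states were tested as interactions over all genes with limma, and 4 of them were computed. The effect of p53 loss differed between neural and undifferentiated cells for 23 of the 39 genes (18.1% of all genes tested), all more negative in neural cells, led by RRM2 (log2 difference -1.03), GINS2 (-0.81), CDC45 (-0.70) and PCNA (-0.65). For USP7 loss the effect differed in 11 of the 39 genes, a share below that of all genes tested (42.1%): it was less negative in neural cells for TK1 (0.63), CCNE1 (0.56), RRM2 (0.46) and GINS4 (0.40), among others, and more negative for DSCC1 (-0.53). In the third undifferentiated p53_USP7_DKO library DSCC1, TK1 and RRM2 read higher than in both other libraries of the group, and CCNE1 and GINS4 lower.

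BCOR loss gave the widest gap, with 39 of 39 genes (63.8% of all genes tested in either direction) less negative or higher in neural cells, led by RRM2 (2.95), GINS2 (2.48), TK1 (2.46) and CDC6 (2.40). In the heterozygote experiment 8 of the 39 genes differed, beside 16.2% of all genes tested. GINS4 had the largest difference (0.76), in the direction opposite to CCNE1 (-0.35), CHAF1A (-0.27), UNG (-0.27) and TYMS (-0.26). With groups of 2 or 3 libraries no search for single outlying values was made.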

How the results depend on the processing

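Each count of called genes was recomputed under each alternative. No gene called in a comparison in the reported fit changed the sign of its log2 fold change there. Signs of genes that were not called were not compared. Of 188 counts from whole-library alternatives 181 stayed within 1.5 times the reported one. For BCOR loss in neural cells 25 genes were called without the 2 libraries that stood apart, against 16. For DMSO against untreated cells 10 were called when no other groups were fitted and 7 without the 2 libraries, against 2. For the USP7 interaction the counts were 4 and 19 in the same order, against 11. DESeq2 called 2 genes for heterozygosity in undifferentiated cells, against 7, and 3 for the heterozygote interaction, against 8. The cause was not tested.

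With each library left out in turn, counts ran from 2 to 4 for p53 loss in undifferentiated cells and from 1 to 2 for DMSO. For p53 loss in neural cells they ran from 29 to 33, against 38. For BCOR loss in neural cells they ran from 11 to 15, against 16. The range was 8 to 18 for the USP7 interaction and 4 to 8 for the heterozygote interaction. It was 2 to 5 for heterozygosity in undifferentiated cells. Under alternatives other than leaving out 1 library, 7332 log2 fold changes of single genes were compared with those reported. Of these 7172 stayed called or not called as before, 118 passed the threshold newly and 42 no longer did. With 1 library left out, 5389 of 5616 stayed called or not called as before, 43 passed newly and 184 no longer did. With the replicate block the count was 37 for p53 loss in neural cells, against 38, 17 for BCOR loss in neural cells, against 16, and 22 for the p53 interaction, against 23, and the other counts were equal. That block was fitted in the knockout and inhibitor experiment only. In the heterozygote experiment the replicate numbers of the columns differ from those of the titles in all groups but neural WT. Its columns could be tied to groups only, so no paired fit was made there. Groups of 2 or 3 libraries limit all of these values.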
